A study of Mus musculus with 8 samples.

Results

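The genes described here encode the transcription factor NRF2 with its partners and the thioredoxin, glutathione, heme, iron and NADPH enzymes that cells use against oxidants. They were taken as a list of 46 gene names, of which 44 were found among the 19330 genes of the count table and 43 passed the filter on low counts. Slc7a11 and Me1 were not analysed here. The RNA came from regulatory T cells (Tregs) polarized in vitro for 3 days, starting with naive CD4+ splenic T cells of B6 mice. The oxPAPC group (4 libraries) had oxPAPC, a mixture of oxidized phospholipids, in the culture, and the Control group (4 libraries) did not. The labels give no dose of oxPAPC and no sort after culture, and whether a replicate is its own mouse or culture is not stated. All p-values therefore measure only the spread between these libraries, which may be technical. The comparison asks how oxPAPC changes gene expression during Treg differentiation.

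NRF2, encoded by Nfe2l2, is held low by KEAP1, which hands it to the proteasome. Oxidants and electrophiles modify cysteines of KEAP1, after which NRF2 accumulates, pairs with a small MAF protein and binds antioxidant response elements, where the repressor BACH1 competes with it. Its targets include enzymes that reduce thioredoxin and glutathione with NADPH, enzymes that make NADPH, and enzymes that conjugate or reduce reactive aldehydes and quinones. Thioredoxin and glutathione both serve dividing T cells, and oxidized phospholipids are known as NRF2 activators in endothelial cells and macrophages.

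The counts of a library summed to 14017583 to 21619731. The noncoding gene Gm26917 took 9.35% to 19.4% of the counts of oxPAPC libraries and 8.59% to 29.1% of those of Control libraries. Levels are given below as TMM-scaled CPM, the count of a gene relative to the scaled total of its library. All 6 T cell markers and all 6 Treg markers were measured, and none of these 12 passed the test. The summed level of 5 macrophage markers was 9.09 to 11.3 CPM in oxPAPC libraries and 3.77 to 4.80 CPM in Control libraries, with Mpeg1 the only called gene of the 4 tested (3.66, 3.44, 4.28 and 4.72 CPM in oxPAPC libraries and 0.0665, 0.377, 0.137 and 0.230 CPM in Control libraries). That of 5 B cell markers was 12.8 to 15.1 CPM in oxPAPC and 9.75 to 14.6 CPM in Control libraries, ranges that overlapped, and 2 of them (Ms4a1 and Pax5) rose. The 4 measured dendritic cell markers summed to 12.5 to 15.3 CPM in oxPAPC and 6.19 to 10.8 CPM in Control libraries, and of the 3 tested Flt3 rose. The ranges of the 6 erythroid markers (12.8 to 28.7 CPM in oxPAPC, 11.4 to 18.8 CPM in Control libraries) overlapped, as did those of 3 stromal markers, and the only measured neutrophil marker, Camp, was below 1 CPM in all 8 libraries. The part of other cell types in the results below was not tested, and in bulk RNA fewer cells of a type and less RNA per cell cannot be told apart.

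Most of the redox genes did not pass the test, and those that did went both ways. Sulfiredoxin, thioredoxin reductase, thioredoxin, glutathione reductase, an NADPH-forming enzyme and biliverdin reductase A rose in the oxPAPC libraries, while a glutathione transferase, microsomal epoxide hydrolase, the thioredoxin inhibitor Txnip and biliverdin reductase B fell. With edgeR (quasi-likelihood, Benjamini-Hochberg over the 16434 genes tested), 6 of the 43 members were higher in oxPAPC libraries, with adjusted p under 0.05 (Srxn1, Txnrd1, Txn1, Gsr, Pgd and Blvra), 4 were lower (Gsta4, Ephx1, Txnip and Blvrb) and 33 did not pass. Members called higher made up 14.0% of those tested, against 6.75% of all genes, and members called lower 9.3%, against 6.52%. In either direction the shares were 23.3% of members and 13.3% of all genes. Only 4 tested members had a mean under 5 CPM in both groups, while all genes hold many low ones, which were called less often. With a mean of at least 5 CPM required, 5 members were higher and 5 lower, beside 958 higher and 924 lower of 10277 genes. The shares of all genes given here are therefore low for genes at the members' level. The members' median log2 fold change was 0.03, and that of all genes was -0.01. All 4 oxPAPC libraries lay above all 4 Control libraries for 5 tested members (9.5% of all genes) and below them for 4 (9.86% of all genes). The lists and members had been chosen with earlier results of these data known, so these shares are descriptions. With library size scaling 6 members were higher and 2 lower, so that 75.0% of the called members were higher, against 60.0% after TMM. Of all genes called, 71.59% were higher with library size scaling, against 50.87% after TMM. Without oxPAPC replicate 4 or without Control replicate 2, 3 members were higher.

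**Figure D1:**
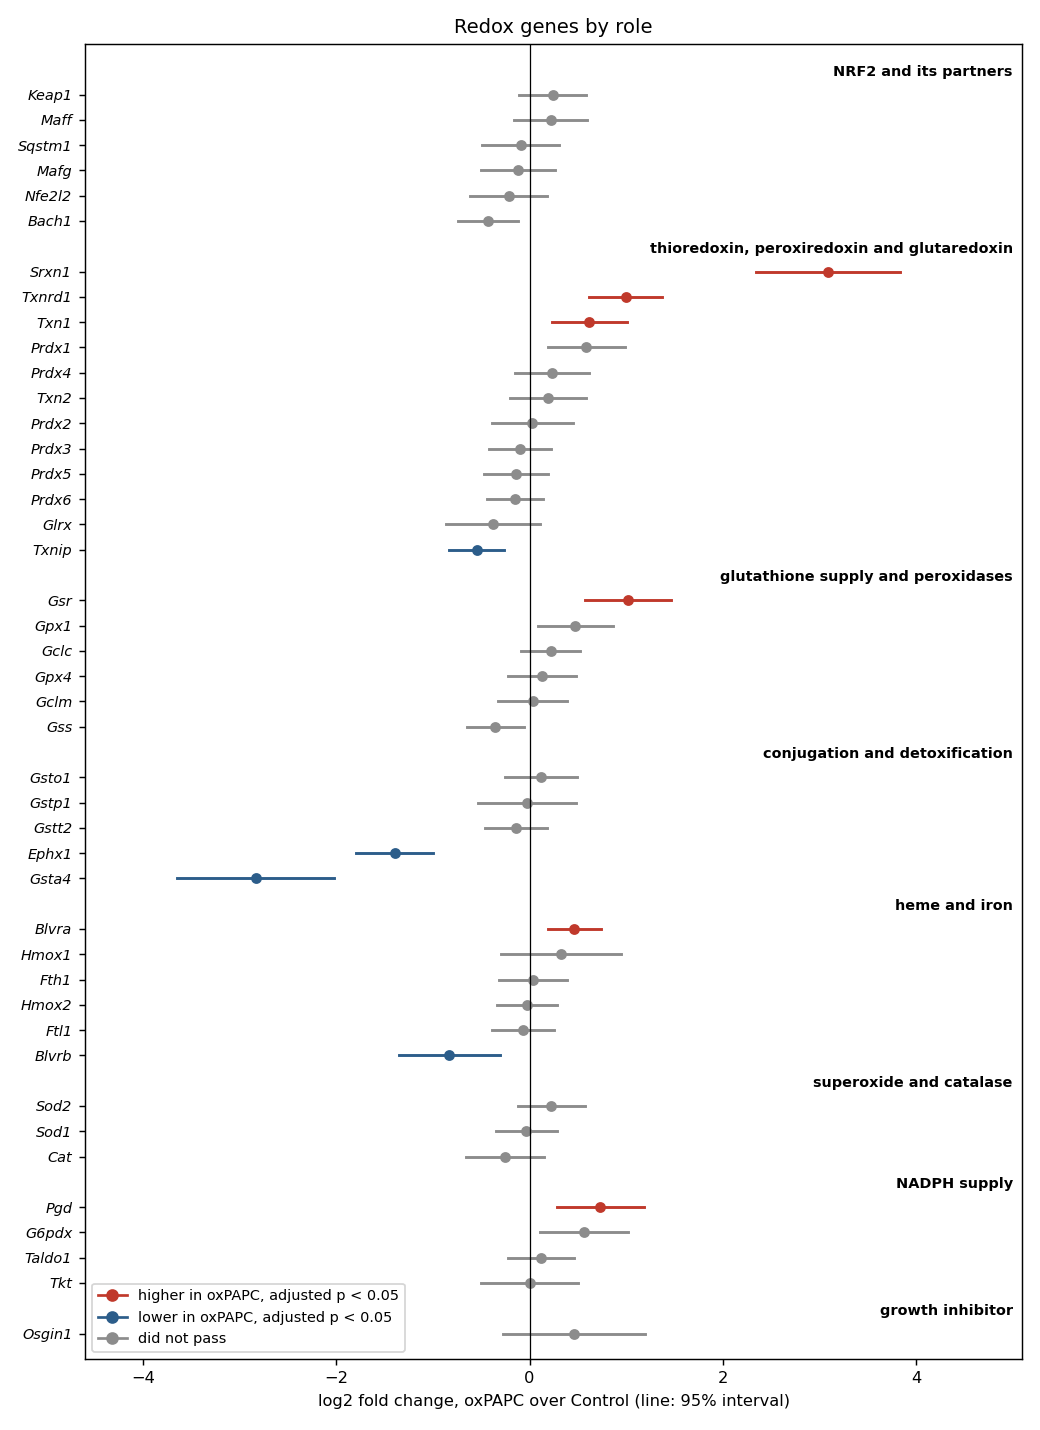
Log2 fold change of oxPAPC over Control (x axis) for the 43 tested redox genes (y axis), grouped by role, with each gene's own 95% interval as a line. Red marks the 6 genes called higher in oxPAPC libraries, blue the 4 called lower and grey the 33 that did not pass. Srxn1 at 3.09 and Gsta4 at -2.84 lie farthest from 0.

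NRF2 and its partners were measured at moderate levels, and none of the 6 passed the test (13.3% of all genes passed). Nfe2l2 itself had 10.7, 14.2, 17.7 and 19.1 CPM in oxPAPC libraries and 15.8, 17.1, 22.0 and 17.1 CPM in Control libraries, and the groups overlapped. Its log2 fold change was -0.22, with a 95% interval of -0.61 to 0.18 (edgeR adjusted p = 0.5002). Keap1, the inhibitor of NRF2, had 41.9, 42.0, 63.0 and 48.7 CPM in oxPAPC libraries and 37.0, 46.3, 35.7 and 47.0 CPM in Control libraries. Its interval also held 0 (log2 fold change 0.24, -0.11 to 0.59, edgeR adjusted p = 0.378).

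Bach1, the repressor that competes with NRF2, came closest to the threshold in this group. It had 16.0, 18.8, 16.5 and 15.7 CPM in oxPAPC libraries and 18.8, 26.3, 21.7 and 23.7 CPM in Control libraries, with the groups touching at their edges. The log2 fold change was -0.43 ± 0.14 (SE, edgeR adjusted p = 0.0620), and it passed when a mean of 5 CPM was required (edgeR adjusted p = 0.0450) and with a correction for GC and length (0.0483). The small MAF genes Mafg and Maff had log2 fold changes of -0.12 and 0.22, and Sqstm1, whose product p62 binds KEAP1, had -0.09. With library size scaling the values of Mafg and Sqstm1 turned to 0.05 and 0.06. Among the members, Keap1, Sqstm1, Txnip, Prdx2, Prdx5, Gss, Gclm, Hmox2, Ftl1 and G6pdx have exons that share bases with genes on the opposite strand, and Mafg, Ephx1, Gclm, Ftl1 and Tkt with genes on their own. How counting treated strand is not stated, so their values are uncertain to that extent.

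The thioredoxin system held the largest rise among the members, that of Srxn1. Thioredoxin reduces protein disulfides, thioredoxin reductase recharges it with NADPH, peroxiredoxins pass electrons from thioredoxin to peroxides, and sulfiredoxin rescues peroxiredoxins that have been over-oxidized. Of the 12 tested genes of this group 3 rose, 1 fell and 8 did not pass (33.3% called, against 13.3% of all genes). Srxn1, which encodes sulfiredoxin and lies on chromosome 2 (chr2:152105516-152111376, GRCm38, plus strand), had 2.02, 2.84, 3.40 and 3.45 CPM in oxPAPC libraries and 0.333, 0.151, 0.457 and 0.368 CPM in Control libraries. The lowest oxPAPC library lay above the highest Control library. These levels rest on 27, 43, 77 and 68 counts in oxPAPC libraries and on 5, 2, 10 and 8 counts in Control libraries. The log2 fold change was 3.09 ± 0.35 (SE, edgeR adjusted p = 0.000101), an 8.49-fold higher level, and with 1 library left out it ranged between 2.90 and 3.29. Per kilobase of exon Srxn1 stayed low, at 1.04 CPM per kb in oxPAPC and 0.116 CPM per kb in Control libraries.

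The sequence around the start of Srxn1 is shown because this gene had the largest fold change of the members. Parts of the windows of some further members that carry the core letters of the antioxidant response element follow. Maff, G6pdx, Sod1 and Me1 also carry these letters and are not shown. Sequences are RefSeq promoter windows of GRCm38.p6, 250 bases before to 50 after the start, written 5′ to 3′ on the strand of the gene. The element's core was searched as TGACNNNGC on both strands. The AP-1 heptamer TGACTCA, which overlaps some forms of the element, was added after the sequences were seen, also on both strands. In the Srxn1 window, chr2:152105274-152105573 on the plus strand, capitals mark 2 heptamers, at positions -102 and -45 from the start, and the core, on the reverse strand at position 29. The heptamer at -45 is followed directly by GC, a spelling that the searched TGACNNNGC does not match and the search could not count. Which of the marked sites acts in these cells was not tested. In the other lines capitals mark the core alone.
Srxn1: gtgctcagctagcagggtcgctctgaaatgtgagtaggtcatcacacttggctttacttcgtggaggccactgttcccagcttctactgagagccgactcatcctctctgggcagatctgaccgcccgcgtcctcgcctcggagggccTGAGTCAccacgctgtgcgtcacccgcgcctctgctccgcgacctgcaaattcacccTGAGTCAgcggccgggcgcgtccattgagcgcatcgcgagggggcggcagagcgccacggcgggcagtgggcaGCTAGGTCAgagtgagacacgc
Txnrd1, chr10:82859094-82859142, plus strand: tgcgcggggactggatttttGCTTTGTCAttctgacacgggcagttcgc
Blvra, chr2:127070588-127070636, plus strand: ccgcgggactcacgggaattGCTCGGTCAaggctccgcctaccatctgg
Pgd, chr4:149166051-149166099, minus strand: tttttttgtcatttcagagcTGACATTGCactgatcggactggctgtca
Prdx1, chr4:116685446-116685494, plus strand: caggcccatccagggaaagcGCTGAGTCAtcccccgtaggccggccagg
Nfe2l2, chr2:75704875-75704913, minus strand: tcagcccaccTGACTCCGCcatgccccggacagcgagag
Gclm, chr3:122245403-122245451, plus strand: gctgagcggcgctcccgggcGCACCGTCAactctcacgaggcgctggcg
Mafg, chr11:120633741-120633789, minus strand: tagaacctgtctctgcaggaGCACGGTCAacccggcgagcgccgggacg

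A window was found for 40 of the 46 members, and for genes with several starts all windows were searched. The core stood in the windows of 12 of the 40 members, Me1 included (30.0%) and of 3781 of 27025 genes in the table (14.0%). Of the 5 members called higher that had a window, Srxn1, Txnrd1, Blvra and Pgd held it and Txn1 did not. Txnrd1 has 3 windows and Pgd 2. Their printed matches lie inside the gene, away from its outermost start (82833951 on chromosome 10 and 149166771 on chromosome 4). Whether those stretches act as promoters in these cells was not tested. The Pgd match begins at position 4, just after a T-rich stretch ending in CAG, which is spelled like the end of an intron. Its letters may thus belong to an inner exon, so counting Pgd among the genes that hold the core is uncertain. The core was in none of the 3 members called lower that had a window (Ephx1, Txnip and Blvrb). Among the 29 members that did not pass, 7 held it (Prdx1, Nfe2l2, Gclm, Mafg, Maff, G6pdx and Sod1). The core of Prdx1 overlaps an AP-1 heptamer. The heptamer was found in 6 of 40 members (15%) and 1607 of 27025 genes (5.95%). Such matches are letters in a window and no evidence of binding, and no window was at hand for Gsr, Gsta4, Gclc and Hmox1.

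Txnrd1, the gene of cytosolic thioredoxin reductase (chr10:82833951-82897712), had 73.7, 61.4, 107 and 84.0 CPM in oxPAPC libraries and 38.1, 42.0, 34.3 and 49.4 CPM in Control libraries. The groups did not overlap. Its level was 1.99-fold higher (log2 fold change 0.99 ± 0.18, SE, edgeR adjusted p = 0.00251), and with 1 library left out this ranged between 0.83 and 1.11. Txn1, the gene of cytosolic thioredoxin, was the most abundant member per kilobase, with 476 CPM per kb in oxPAPC and 309.9 CPM per kb in Control libraries. It had 524, 524, 417 and 535 CPM in oxPAPC libraries and 424, 271, 306 and 302 CPM in Control libraries. Control replicate 1 lay above oxPAPC replicate 3, so the groups overlapped. The log2 fold change was 0.62 ± 0.18 (SE, edgeR adjusted p = 0.0379). This call was lost without oxPAPC replicate 1, 2 or 4 or Control replicate 2, 3 or 4 (edgeR adjusted p of 0.0723 to 0.130) and in the fit blocked on replicate number (0.0583).

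Txnip encodes a protein that binds and inhibits thioredoxin and also limits glucose uptake. It had 46.6, 50.7, 56.7 and 52.7 CPM in oxPAPC libraries and 64.0, 79.8, 81.4 and 76.8 CPM in Control libraries, with no overlap. The log2 fold change was -0.55 ± 0.13 (SE, edgeR adjusted p = 0.0147). The call was lost without oxPAPC replicate 1 (edgeR adjusted p = 0.0572) and with library size scaling (log2 fold change -0.42, edgeR adjusted p = 0.200). That scaling put the median gene at a log2 fold change of 0.12, against -0.01 after TMM, and relative to that median Txnip had -0.53. The exons of Txnip share 606 bases with the antisense gene Gm15441, which had 221 counts over the 8 libraries, against 9187 for Txnip.

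The peroxiredoxins did not pass as a group. Prdx1, a cytosolic peroxiredoxin and known NRF2 target, had 136, 121, 139.8 and 174 CPM in oxPAPC libraries and 111, 67.7, 116 and 84.9 CPM in Control libraries. Every oxPAPC library lay above every Control library, yet it fell just short of the threshold (log2 fold change 0.59 ± 0.19, SE, edgeR adjusted p = 0.0514). It passed with RLE scaling (edgeR adjusted p = 0.0443), with the GC and length correction (0.0130), without oxPAPC replicate 2 (0.0499) and without Control replicate 3 (0.0277). Its adjusted p was 0.0471 with limma-voom and 0.0177 with DESeq2. In the authors' deposited table the adjusted p of Prdx1 was 0.0171. Prdx2, the second most abundant peroxidase gene per kilobase after Gpx1, had 409.6 ± 80.5 CPM in oxPAPC and 402 ± 78.8 CPM in Control libraries (SD, n = 4 each). Its log2 fold change was 0.03, with an interval of -0.39 to 0.45. The mitochondrial Prdx3, Prdx5 of several compartments, the endoplasmic reticulum enzyme Prdx4 and the 1-cysteine peroxiredoxin Prdx6 had log2 fold changes of -0.10, -0.14, 0.23 and -0.15. Mitochondrial thioredoxin Txn2 had 0.19 and glutaredoxin Glrx, which uses glutathione, had -0.38 (edgeR adjusted p = 0.312).

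**Figure D2:**
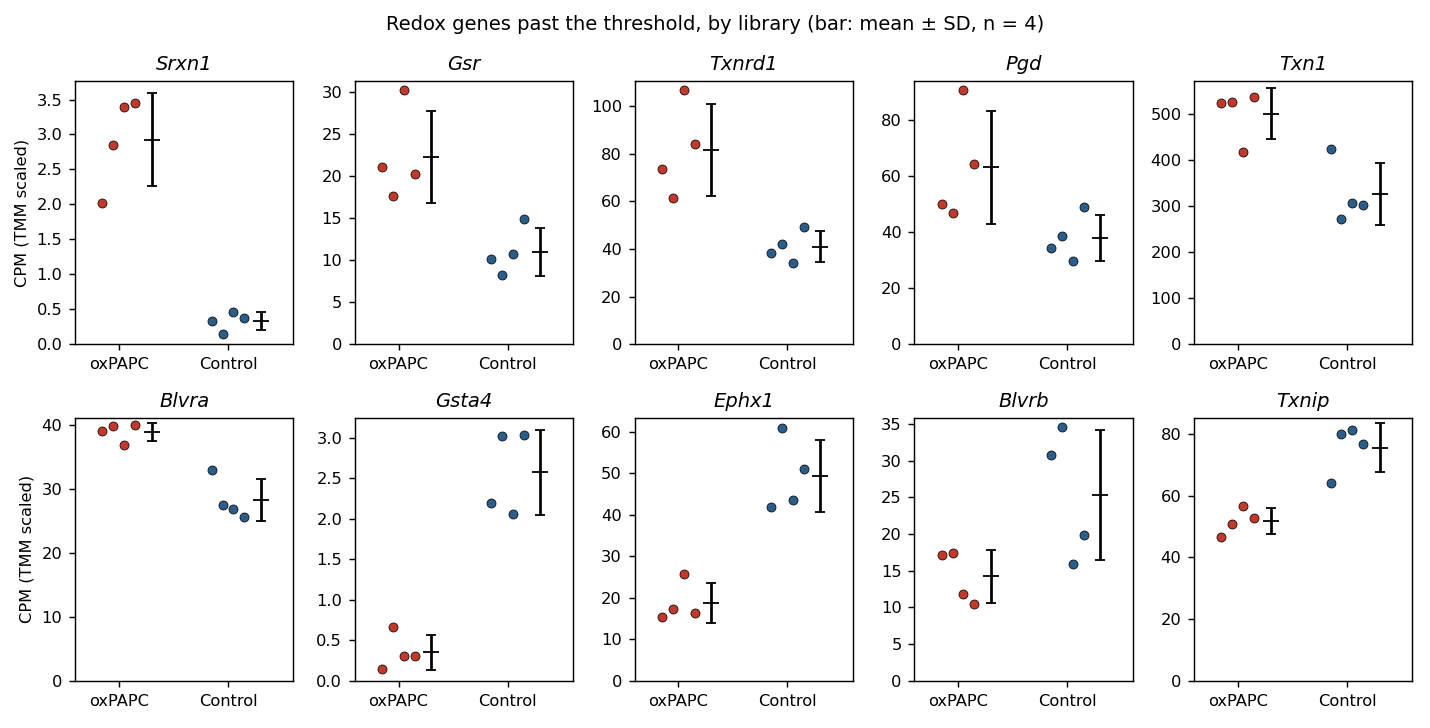
CPM after TMM scaling (y axis, each from 0) in each oxPAPC and Control library (points) for the 10 redox genes past the threshold, with mean ± SD of 4 libraries beside the points. Srxn1, Gsr, Txnrd1, Blvra, Gsta4, Ephx1 and Txnip show no overlap between groups, while Pgd, Txn1 and Blvrb do.

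In the glutathione group the reductase rose and the synthesis genes did not pass. Glutathione is made by glutamate-cysteine ligase (Gclc and Gclm) and glutathione synthetase (Gss), and its oxidized form is reduced with NADPH by glutathione reductase (Gsr). Gsr (chr8:33652523-33698163) had 21.05, 17.7, 30.2 and 20.3 CPM in oxPAPC libraries and 10.1, 8.22, 10.7 and 14.9 CPM in Control libraries, with no overlap. Its level was 2.02-fold higher (log2 fold change 1.02 ± 0.21, SE, edgeR adjusted p = 0.00536), and the change ranged between 0.83 and 1.20 with 1 library left out. Gclc, the catalytic subunit, had 15.5, 16.1, 18.1 and 14.9 CPM in oxPAPC libraries and 14.96, 12.8, 13.0 and 14.9 CPM in Control libraries. The groups overlapped, and the log2 fold change was 0.22 with an interval of -0.08 to 0.52 (edgeR adjusted p = 0.349). Gclm, the modifier subunit, had 23.4, 21.8, 32.6 and 22.4 CPM in oxPAPC libraries and 22.2, 27.8, 20.3 and 27.7 CPM in Control libraries. Its log2 fold change of 0.03 had an interval of -0.32 to 0.39, which lies below a 1.5-fold rise (edgeR adjusted p = 0.924). It turned to -0.12 without oxPAPC replicate 3.

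Gss was lower in every oxPAPC library than in every Control library without passing. It had 19.9, 16.9, 21.2 and 17.4 CPM in oxPAPC libraries and 22.7, 25.1, 22.0 and 26.6 CPM in Control libraries (log2 fold change -0.35 ± 0.14, SE, edgeR adjusted p = 0.105). It passed with the filter at 5 CPM (edgeR adjusted p = 0.0470) and with the GC and length offset (0.0456). Gpx1, the main cytosolic glutathione peroxidase, had 319.6 ± 50.4 CPM in oxPAPC and 230.0 ± 45.5 CPM in Control libraries (SD, n = 4 each, log2 fold change 0.47, edgeR adjusted p = 0.102). It passed without oxPAPC replicate 3 (edgeR adjusted p = 0.0471), without Control replicate 1 (just under the threshold) and with DESeq2 (adjusted p = 0.0411). Its adjusted p was 0.0396 in the authors' deposited table. Gpx4, which reduces lipid peroxides within membranes, had 182 ± 31.3 CPM in oxPAPC and 167 ± 20.6 CPM in Control libraries (SD, n = 4 each), and its log2 fold change of 0.13 had an interval of -0.22 to 0.48.

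Of the conjugating and detoxifying genes, 2 of the 5 tested fell (40.0%, against 6.52% of all genes) and none rose. Gsta4 encodes a glutathione transferase that acts on the lipid peroxidation product 4-hydroxynonenal. Gsta4 (chr9:78182774-78209349) had 0.149, 0.661, 0.309 and 0.304 CPM in oxPAPC libraries and 2.19, 3.02, 2.06 and 3.04 CPM in Control libraries, from 2, 10, 7 and 6 counts in oxPAPC and 33, 40, 45 and 66 counts in Control libraries. No oxPAPC library reached the lowest Control library. The log2 fold change was -2.84 ± 0.38 (SE, edgeR adjusted p = 0.000333), a 7.14-fold lower level, and it ranged between -3.24 and -2.63 with 1 library left out.

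Ephx1, the gene of microsomal epoxide hydrolase (chr1:180976210-181020904), was better expressed. It had 15.3, 17.3, 25.8 and 16.3 CPM in oxPAPC libraries and 41.8, 61.0, 43.5 and 51.0 CPM in Control libraries, again with no overlap. Its level was 2.63-fold lower (log2 fold change -1.39 ± 0.18, SE, edgeR adjusted p = 0.000329). Both genes are listed among NRF2 targets in mouse tissues, and both moved opposite to Srxn1, Txnrd1 and Gsr. Gstp1, Gsto1 and Gstt2, further glutathione transferases, had log2 fold changes of -0.03, 0.12 and -0.14. Gstp1 has close paralogs, so its value is uncertain where reads were shared. Nqo1, a quinone reductase often used as a readout of NRF2, had 0.746, 0.264, 0.397 and 0.862 CPM in oxPAPC libraries and 0.133, 0.377, 0.594 and 0.230 CPM in Control libraries. It was at most 17 counts in a library and was removed by the filter. Without the filter its log2 fold change was 0.73 (edgeR adjusted p = 0.415), which at this depth could not be told from 0.

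Of the 6 heme and iron genes, the biliverdin reductases Blvra and Blvrb passed the test, in opposite directions, and 4 did not pass. The share called was 33.3%, against 13.3% of all genes. Heme oxygenase opens heme to biliverdin, and biliverdin reductase A turns that into bilirubin. Hmox1, the inducible heme oxygenase, had 1.87, 1.65, 3.09 and 2.03 CPM in oxPAPC libraries and 1.26, 2.34, 1.69 and 1.70 CPM in Control libraries. The groups overlapped, and the log2 fold change of 0.33 had a wide interval of -0.30 to 0.95 (edgeR adjusted p = 0.519). Blvra had 39.0, 39.9, 36.9 and 40.0 CPM in oxPAPC libraries and 33.1, 27.5, 26.8 and 25.6 CPM in Control libraries, with no overlap. Its log2 fold change was 0.46 ± 0.13 (SE, edgeR adjusted p = 0.0275). The call was lost without oxPAPC replicate 1, 2 or 4 or Control replicate 2 or 4 (edgeR adjusted p of 0.0599 to 0.0890) and with the replicate block (0.0641).

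Blvrb, which also acts as a flavin reductase and is abundant in red cells, moved the other way. It had 17.1, 17.5, 11.9 and 10.5 CPM in oxPAPC libraries and 30.7, 34.6, 15.9 and 19.9 CPM in Control libraries, where Control replicates 1 and 2 were the high ones and Control replicate 3 lay within the oxPAPC range. The log2 fold change was -0.83 ± 0.24 (SE, edgeR adjusted p = 0.0368). The call was lost without oxPAPC replicate 3 or 4 or Control replicate 1 or 2 (edgeR adjusted p of 0.0748 to 0.121), with library size scaling (0.0531) and with limma-voom (adjusted p = 0.0508). The summed erythroid markers were 12.8 to 28.7 CPM in oxPAPC and 11.4 to 18.8 CPM in Control libraries, and their part in the value of Blvrb was not tested. The ferritin genes Fth1 and Ftl1, which have many processed pseudogenes, had log2 fold changes of 0.04 and -0.07, and the constitutive heme oxygenase gene Hmox2 had -0.03.

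Among the genes grouped under NADPH supply, not all of which form NADPH themselves, 1 of 4 tested rose (25.0%, against 6.75% of all genes). The pentose phosphate pathway makes NADPH in its oxidative steps, at glucose-6-phosphate dehydrogenase (G6pdx) and phosphogluconate dehydrogenase (Pgd), and Taldo1 and Tkt work in its non-oxidative steps. Pgd had 49.9, 46.9, 90.7 and 64.3 CPM in oxPAPC libraries and 34.4, 38.7, 29.6 and 48.9 CPM in Control libraries, and Control replicate 4 lay above oxPAPC replicate 2. Its log2 fold change was 0.73 ± 0.21 (SE, edgeR adjusted p = 0.0345). The call was lost without oxPAPC replicate 3 or 4 or Control replicate 1, 2 or 3 (edgeR adjusted p of 0.0688 to 0.0959) and with the replicate block (0.0885). G6pdx had 18.3, 15.5, 33.8 and 26.9 CPM in oxPAPC libraries and 14.2, 16.7, 16.6 and 16.7 CPM in Control libraries. Both oxidative-branch genes were highest in oxPAPC replicate 3, and G6pdx did not pass (log2 fold change 0.56 ± 0.21, SE, edgeR adjusted p = 0.0952). Without oxPAPC replicate 3 the log2 fold changes of Pgd and G6pdx were 0.50 and 0.34 (edgeR adjusted p of 0.0815 and 0.262). Without oxPAPC replicate 2, G6pdx passed (log2 fold change 0.72, edgeR adjusted p = 0.0296). Taldo1 and Tkt had 0.12 and 0.00.

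The superoxide dismutase genes Sod1 and Sod2 and the catalase gene Cat did not pass, with log2 fold changes of -0.03, 0.22 and -0.26. Without oxPAPC replicate 3, Cat passed (log2 fold change -0.49, edgeR adjusted p = 0.0467). Osgin1, a growth inhibitor induced by oxidative stress, had 1.70 ± 0.503 CPM in oxPAPC and 1.25 ± 0.468 CPM in Control libraries (SD, n = 4 each, log2 fold change 0.46, edgeR adjusted p = 0.430). The interval of Osgin1 was wide, at -0.28 to 1.20. Of the 33 members that did not pass, 25 had a log2 fold change within 0.3 of 0, and the values ranged between -0.43 (Bach1) and 0.59 (Prdx1). Of 42 members with an adjusted p in the authors' deposited table, 12 were under 0.05 there, 8 of them higher and 4 of them lower, beside 14.4% of all genes there in either direction. These 12 hold all 10 called by edgeR and add Prdx1 and Gpx1.

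**Figure D3:**
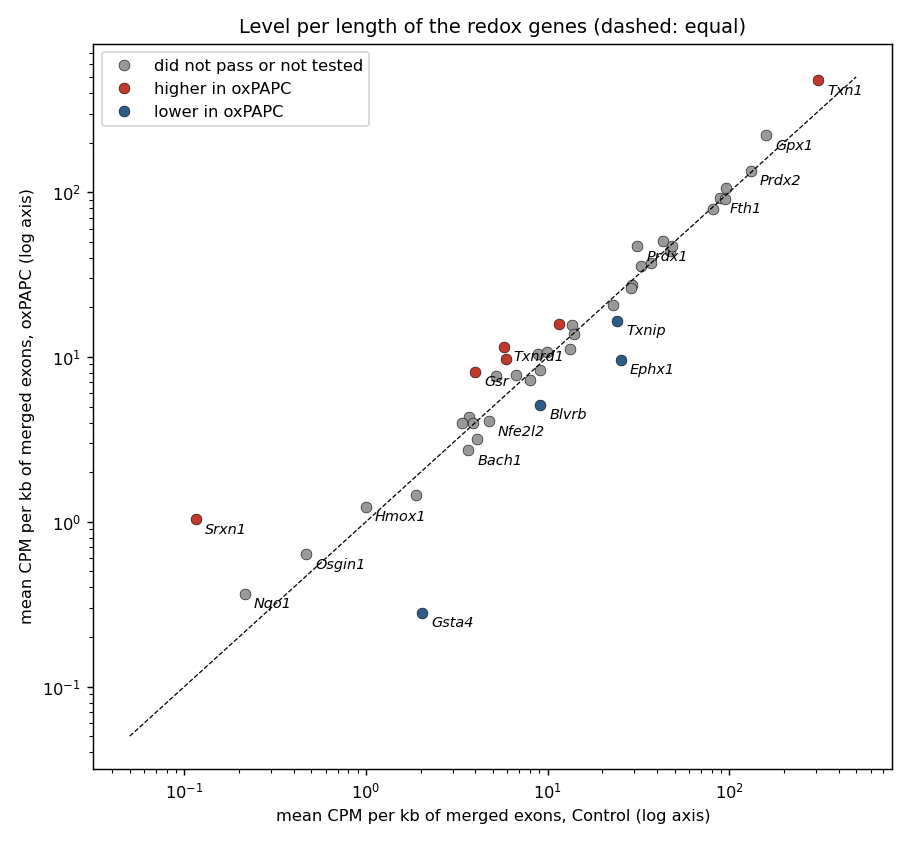
Mean CPM per kilobase of merged exons in oxPAPC libraries (y axis) against Control libraries (x axis) for the 44 redox genes measured, both on log axes, with equal levels on the dashed line. The genes farthest from the line, Srxn1 and Gsta4, lie at the low end. Ephx1, at 9.58 in oxPAPC and 25.3 CPM per kb in Control libraries, also lies off it. Of the abundant genes, Prdx2 and Fth1 lie near the line. Txn1 was 1.54-fold higher in oxPAPC libraries and Gpx1, which did not pass, 1.39-fold.

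Levels per kilobase spanned the range between 0.116 (Srxn1) and 309.9 CPM per kb (Txn1) in Control libraries. In oxPAPC libraries the lowest was Gsta4 at 0.281 CPM per kb and the highest again Txn1, at 476. Txn1 was followed by Gpx1, with 222 in oxPAPC and 159.6 CPM per kb in Control libraries, and Prdx2, with 134 in oxPAPC and 132 CPM per kb in Control libraries. The summed level of the 44 measured members was 3908, 3571, 4028 and 3802 CPM in oxPAPC libraries and 3772, 3535, 3052 and 3528 CPM in Control libraries. These sums overlapped.

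Within groups, the highest and lowest levels of the members were spread unevenly over the libraries. In oxPAPC replicate 3, 25 of the 44 members (56.8%, against 33.9% of all genes tested) had the highest level of the 4 oxPAPC libraries, Gsr, Txnrd1, Pgd, G6pdx, Tkt and Gclm among them. The 7 members lowest in that library were Txn1, Prdx2, Prdx4, Gpx1, Gpx4, Gstt2 and Blvra. Merged exons had a median of 3469 bases in the 25 and 2106 bases in the 7. In Control replicate 3, 23 of 44 members (52.3%, against 31.8% of all genes tested) had the lowest level of the 4 Control libraries. In Control replicate 4, 16 members (36.4%, against 23.5%) had the highest. These shares are descriptions, with no test. Gm26917 took 9.51% of counts in oxPAPC replicate 3 and 8.59% in Control replicate 3, against 29.1% in Control replicate 2. The part of library composition in these patterns was not tested. With an offset for GC content and length, all 10 called members stayed past the threshold.

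**Figure D4:**
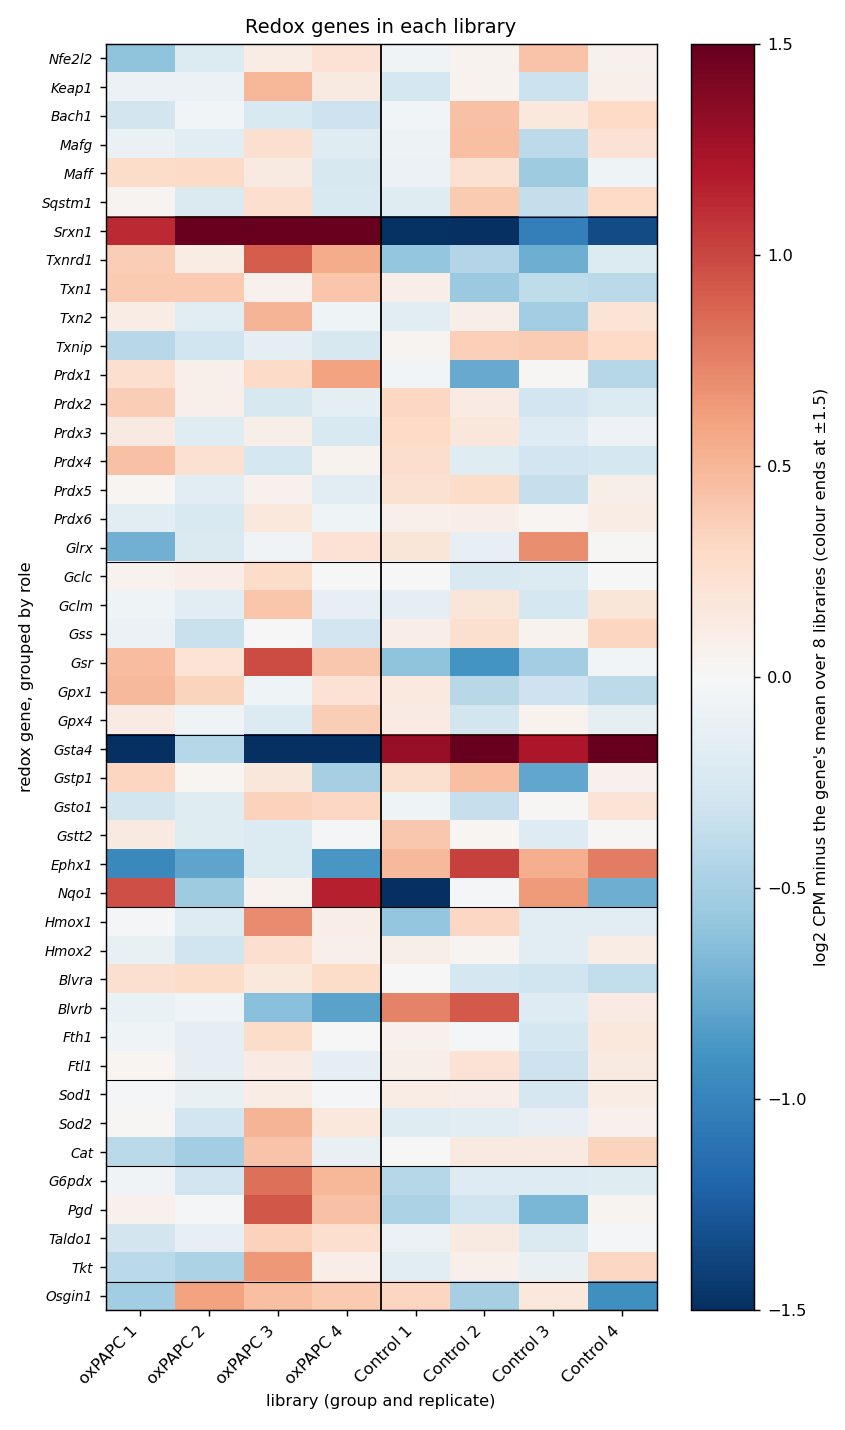
Log2 CPM of the 44 measured redox genes (rows, grouped by role) in the 4 oxPAPC and 4 Control libraries (columns), each gene centred on its mean over the 8 libraries, red above and blue below, with the colour ending at ±1.5. Srxn1 (red in oxPAPC) and Gsta4 and Ephx1 (red in Control) separate the groups, and oxPAPC replicate 3 is the highest oxPAPC library in 25 of 44 rows.

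A further 151 redox genes in 7 lists, none of them a member, were set beside these. Of the 119 tested, 11 rose, 13 fell and 95 did not pass (20.2% called, against 13.3% of all genes). The list of glutathione metabolism and transferases had 3 higher and 7 lower of 28 tested (35.7% called) and a median log2 fold change of -0.33. Some of these calls, in both directions, were lost under other settings, while those of the genes named below were kept. Chac1, which degrades glutathione, had 1.94 ± 0.552 CPM in oxPAPC and 7.25 ± 2.26 CPM in Control libraries (SD, n = 4 each, log2 fold change -1.89, edgeR adjusted p = 0.000814). Gstp3, a transferase with close paralogs, the microsomal transferase gene Mgst2 and the neutral amino acid transporter gene Slc1a4 had log2 fold changes of -0.86, -0.86 and -0.89 (edgeR adjusted p of 0.00113, 0.00289 and 0.00585).

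In the iron, heme and ferroptosis list outside the member list, 1 of 12 tested genes rose and 1 fell (16.7% called, against 13.3% of all genes), with a median log2 fold change of -0.03. Tfrc, the transferrin receptor that brings iron into dividing cells, had 209, 139, 215 and 200.2 CPM in oxPAPC libraries and 78.3, 48.1, 75.8 and 70.2 CPM in Control libraries. The groups did not overlap, and the log2 fold change was 1.49 ± 0.19 (SE, edgeR adjusted p = 0.000254). Ncoa4, the receptor that takes ferritin to lysosomes, had 38.1 ± 7.19 CPM in oxPAPC and 65.8 ± 6.54 CPM in Control libraries (SD, n = 4 each, log2 fold change -0.79, edgeR adjusted p = 0.00437). Ncoa4 no longer passed after library size scaling (0.0589).

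Of 15 further NADPH genes tested 3 rose and 2 fell (33.3% called, against 13.3% of all genes). Tigar, which steers glucose into the pentose phosphate pathway, and the folate enzyme genes Mthfd1 and Mthfd1l had log2 fold changes of 1.03, 0.92 and 0.53 (edgeR adjusted p of 0.0043, 0.00728 and 0.0287). The mitochondrial folate gene Aldh1l2 fell by 1.53 on the log2 scale (edgeR adjusted p = 0.00752). The call of Mthfd1l was lost without oxPAPC replicate 1, 3 or 4 or Control replicate 1, 2 or 3 (edgeR adjusted p of 0.0558 to 0.0729) and with the replicate block (0.0786).

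Of 9 tested genes of oxidant sources, 2 rose (Cyba and Cybb, subunits of the phagocyte NADPH oxidase) and Duox1 fell. The share called was 33.3%, against 13.3% of all genes. Cyba had 479 ± 83.2 CPM in oxPAPC and 266 ± 61.0 CPM in Control libraries (SD, n = 4 each, log2 fold change 0.85, edgeR adjusted p = 0.0125). Cybb was low, at 0.920 CPM in oxPAPC and 0.407 CPM in Control libraries (log2 fold change 1.15, edgeR adjusted p = 0.0403). Its call was lost with the replicate block (0.0874), library size scaling (0.0525), no filter (0.0515), DESeq2 (adjusted p = 0.0620) and without any 1 library other than Control replicate 3 (edgeR adjusted p of 0.0586 to 0.112). Cybb is known from phagocytes and B cells. The summed macrophage markers were 9.09 to 11.3 CPM in oxPAPC and 3.77 to 4.80 CPM in Control libraries, those of B cells overlapped between groups, and their part in these values was not tested. Duox1 had 0.603 CPM in oxPAPC and 1.78 CPM in Control libraries (log2 fold change -1.57, edgeR adjusted p = 0.00909).

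In each of the remaining 3 lists, 1 or 2 genes were called (6.67% to 7.69% of those tested, against 13.3% of all genes). Trim21, a ubiquitin ligase that binds p62 and is also induced by interferon, was the only called gene of 14 NRF2 regulators and related factors (log2 fold change 0.94, edgeR adjusted p = 0.00127). In the list of thioredoxin, glutaredoxin and methionine sulfoxide reduction, Sesn2, a stress-induced sestrin, rose by 0.69 (edgeR adjusted p = 0.0116) and the p53 target Trp53inp1 fell by 0.87 (edgeR adjusted p = 0.0017), while 24 of 26 did not pass. The call of Sesn2 was lost with the replicate block (0.0536). Of 15 aldehyde, quinone and xenobiotic genes tested, only Aldh2, the mitochondrial aldehyde dehydrogenase, was called, and it fell by 1.00 on the log2 scale (edgeR adjusted p = 0.00697).

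**Figure D5:**
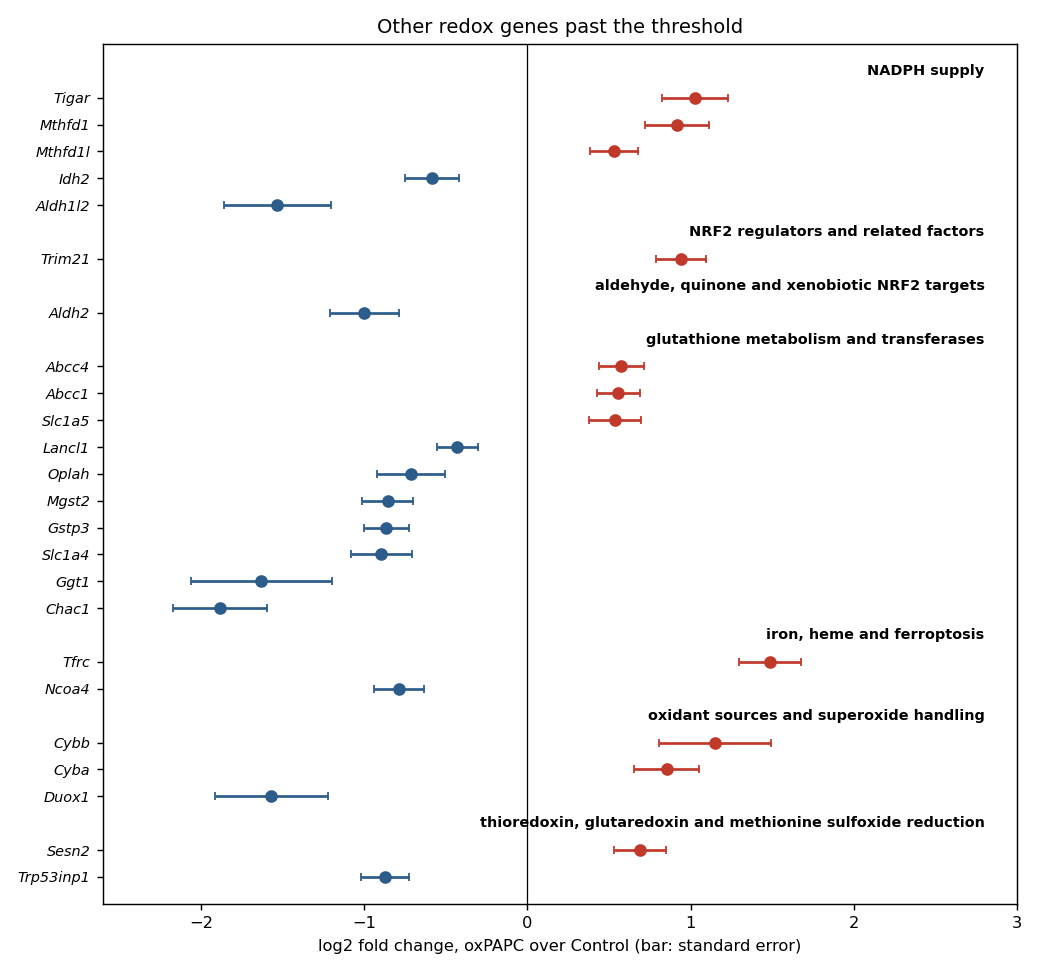
Log2 fold change of oxPAPC over Control with its standard error (x axis) for the 24 called genes (y axis) among the 119 tested redox genes outside the member list, grouped by list. Red genes were higher (11) and blue genes lower (13) in oxPAPC libraries, with 7 of the 10 called genes of glutathione metabolism and transferases on the lower side.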

How the data were processed

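Poly(A) RNA was selected out of total RNA, per the labels' protocols. The build GRCm38.p6 and the tools featureCounts 2.0.2, STAR 2.7.8a and DESeq2 1.30.1 are listed, with no settings, per the submitters' processing notes. The authors deposited whole-number counts per gene for 8 libraries, not normalized. They also deposited their own comparison, with log2 fold changes and adjusted p-values, per the file headers. All 19330 listed genes reach 5 counts in 2 or more libraries.

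After filterByExpr and TMM scaling, 16434 genes were tested between groups by quasi-likelihood (edgeR 4.0.16, R 4.3.3), with a threshold of 0.05 on the Benjamini-Hochberg adjusted p. A standard error is |log2 fold change| over √F, and 95% intervals hold for each gene alone. The common coefficient of biological variation was 0.207. The procedure was tested on simulated data for oxPAPC against Control (16220 genes): it recovered 3 of 67 genes set to 1.5-fold, 39 of 63 set to 2-fold and 59 of 62 set to 4-fold, and made 6 false calls. Simulated counts were independent negative binomial draws with each gene's dispersion, without differences in composition between libraries. The false calls therefore do not give the error rate in the real libraries. Exon lengths and GC content came from GENCODE M21, whose coordinates equal those of all 44 members. Promoter windows came from RefSeq.

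The members and lists were chosen with earlier results of these data known. All members are reported. Per-library values are given for called members and for 12 genes named by rule (Slc7a11, not analysed here, among them), and up to 4 called genes with the smallest adjusted p per further list are named. Alternatives were RLE and library size scaling, no filter, a minimum mean of 5 CPM, limma-voom (limma 3.58.1), DESeq2 1.42.0, a replicate block, leaving out each library, a GC and length offset (loess span 0.5, 16066 genes) and a shorter promoter window. Some genes of the marker and further redox lists are not reported here.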

Additional observations from a re-analysis of the deposited data

Results flagged for a closer look

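In 88 groups of 4 values (44 members in each of the oxPAPC and Control groups) a library far from the 3 others was sought, where chance gives about 4.4, and 6 were found. Txn1 had 417 CPM in oxPAPC replicate 3, against 524 to 535 CPM in the others. Gclm had 32.6 CPM in oxPAPC replicate 3, against 21.8 to 23.4 CPM. In Control replicate 1, Prdx4 had 117 CPM, against 79.2 to 85.3 CPM, Gpx1 had 298 CPM, against 202 to 216 CPM, and G6pdx had 14.2 CPM, against 16.6 to 16.7 CPM. Sod1 had 157 CPM in Control replicate 3, against 202 to 203 CPM.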

How the results depend on the processing

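Of the 10 called members, Srxn1, Txnrd1, Gsr, Gsta4 and Ephx1 were past the threshold in the same direction under all 15 (Srxn1 and Gsta4) or 16 alternatives that tested them, and the filter at 5 CPM removed Srxn1 and Gsta4. No called member changed direction. With a library left out, 3 to 6 members were higher, 3 to 4 lower, and 1390 to 2134 genes were called in all, against 2182. With the replicate block 3 members were higher and 1453 genes were called. As a check of pairing, deviations of libraries that share a number correlated at 0.321, -0.0528, -0.368 and -0.0354 for replicates 1 to 4. A best match to the own number was found for 2 of 8 libraries, both of them replicate 1. With 4 libraries per group the check cannot show whether replicates were paired. Library size scaling left 2 lower members, and the cause was not tested. The core of the antioxidant response element was in 17.5% of members with the window begun 100 bases before the start (8.26% of all genes), a window that holds fewer bases.

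Some uncalled members turned direction, with these log2 fold changes. Library size scaling gave Mafg 0.0472, Sqstm1 0.0627, Prdx3 0.0484, Prdx5 0.0196, Gstp1 0.146, Gstt2 0.0036, Hmox2 0.118, Ftl1 0.0851, Sod1 0.115 and Tkt 0.152. Tkt also turned with RLE scaling (0.0232), no filter (0.0096) and DESeq2 (0.0318), Hmox2 with DESeq2 (0.0020), and Gstp1 with limma-voom (0.0014) and the replicate block (0.0056). The GC and length offset gave Prdx2 -0.0274 and Fth1 -0.0058. With a library left out the ranges were -0.248 to 0.0259 for Mafg, -0.212 to 0.0309 for Sqstm1, -0.104 to 0.147 for Prdx2, -0.121 to 0.100 for Gclm, -0.227 to 0.129 for Gstp1, -0.128 to 0.0602 for Hmox2, -0.0562 to 0.0992 for Fth1 and -0.277 to 0.139 for Tkt. Of the 24 called genes in the further lists, 14 stayed past the threshold under every setting that tested them. Nqo1, Gsta4, Srxn1, Hmox1 and Osgin1 rest on few counts, which limits their precision.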
